A study of Homo sapiens with 6 samples.

Results

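The miR-106b/25 cluster is a group of 3 microRNA hairpins, miR-106b, miR-93 and miR-25, which lie together in an intron of MCM7. Its members were taken by name from the deposited counts by mature miRNA: both arms of each hairpin, 6 of the 2656 miRNAs in the table. They were measured by small RNA sequencing in K562 cells, an established erythroleukaemia line derived from chronic myeloid leukaemia in blast crisis. Azacitidine-resistant K562 cells, which had been kept in rising concentrations of the drug for several months, were compared with azacitidine-sensitive K562 cells, in 3 libraries each that the labels call biological replicates. Azacitidine is a cytidine analogue that lowers DNA methylation. All 6 libraries are from 1 cell line grown in RPMI medium with serum and antibiotics. All 6 library names end in NT, letters that the labels leave unexplained. Whether the drug was in the medium at harvest is not given in the sources used here, and no separate selections of resistant cells are named, so p-values cover the spread between these libraries.

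The cluster is transcribed with MCM7, which encodes a subunit of the helicase that unwinds DNA at replication origins, and E2F and MYC factors are known to drive that transcript. Each hairpin is cut into a 5p and a 3p arm, of which one is usually loaded into Argonaute as the guide while its partner is mostly degraded. A guide recognises target transcripts mainly through its seed, bases 2 to 8. miR-106b-5p and miR-93-5p carry the seed of miR-17-5p and are known to repress CDKN1A, the cell cycle inhibitor p21. miR-25-3p carries the seed of miR-92a-3p and is known to repress BCL2L11, the pro-apoptotic protein BIM.

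On GRCh38 the hairpins lie on the minus strand of chromosome 7, MIR106B at 100093993 to 100094074, MIR93 at 100093768 to 100093847 and MIR25 at 100093560 to 100093643, and together span 515 bp. All 3 fall in intron 13 (100093402 to 100094172) of the 15-exon transcript of MCM7, which GENCODE 29 places at 100092728 to 100101940. The mature sequences of the 6 arms are shown because seeds, base composition and arm use recur in the results. They are RefSeq sequences on GRCh38.p14, 5′ to 3′, with the seed in capitals.
hsa-miR-106b-5p: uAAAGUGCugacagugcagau
hsa-miR-106b-3p: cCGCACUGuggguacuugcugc
hsa-miR-93-5p: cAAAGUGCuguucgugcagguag
hsa-miR-93-3p: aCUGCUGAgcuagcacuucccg
hsa-miR-25-5p: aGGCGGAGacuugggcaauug
hsa-miR-25-3p: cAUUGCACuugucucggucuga
The closest relatives outside the cluster are shown for comparison. miR-17-5p and miR-92a-3p belong to the paralogous miR-17/92 cluster on chromosome 13, and miR-92a-3p is also made on chromosome X.
miR-17-5p: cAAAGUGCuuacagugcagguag
miR-92a-3p: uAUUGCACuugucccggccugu
Among the 2367 of the 2656 miRNAs of the table with a RefSeq sequence, the seed AAAGUGC was found in 8 and AUUGCAC in 6. The seeds of miR-106b-3p, miR-93-3p and miR-25-5p were each found in 1. miR-93-5p lay an edit distance of 3 from miR-17-5p and miR-20b-5p, and miR-25-3p lay 4 from miR-92a-3p. How the authors assigned reads that match near-identical miRNAs is not given in the sources used here, so some exchange of reads between these pairs cannot be told apart from a change. The other arms were 5 or more edits from any other miRNA of the table with a RefSeq sequence. In the hairpins of miR-106b and miR-25 the mature arms, in capitals, lie on either side of the loop.
MIR106B: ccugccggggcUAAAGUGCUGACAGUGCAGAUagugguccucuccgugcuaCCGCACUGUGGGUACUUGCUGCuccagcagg
MIR25: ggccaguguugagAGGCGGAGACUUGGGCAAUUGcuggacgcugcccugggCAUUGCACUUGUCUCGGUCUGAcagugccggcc

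Library totals ran from 3291500 to 10644739 counts in resistant cells and from 5660055 to 12563945 in sensitive cells, and 768 miRNAs passed the filter on low counts. Resistant replicate 3, the smallest library, stood apart. CPM are counts scaled by library size and by TMM factors, which ran from 0.774 in resistant replicate 3 to 1.25 in resistant replicate 2. Over miRNAs, the log2 CPM of resistant replicate 3 had Pearson correlations of 0.875 and 0.864 with resistant replicates 1 and 2, which correlated at 0.995 with each other. miR-92a-3p held 58.6% of its counts, against 20.2% and 17.5% in resistant replicates 1 and 2. A list of 16 annotations that resemble fragments of other RNAs held 4.98% of it, against 1.01% and 1.04% there and 1.08% to 1.70% in sensitive libraries. The 6 haematopoietic and erythroid markers, among them miR-142-3p and miR-451a, had counts in every library, with a summed share of 2.55% to 5.01% in resistant and 1.66% to 1.90% in sensitive libraries. Of the 6, miR-486-5p had a positive log2 fold change of resistant over sensitive cells (2.34) and the other 5 negative ones (-1.52 to -0.41), and none passed the edgeR test. Without resistant replicate 3, miR-486-5p was called higher and miR-223-3p lower, at a background of 28.1% of miRNAs called. The 7 markers of other tissues summed to at most 0.00896% in resistant and 0.0106% in sensitive libraries. Of the 7, miR-375-3p (endocrine) had counts in every library, 237 to 666 in resistant and 271 to 1180 in sensitive ones. miR-122-5p (liver) had 12 to 56 and 16 to 76 counts. miR-1-3p (muscle) had at most 13 and 35 counts, and 0 in replicate 3 of each group. No library had more than 7 counts of miR-150-5p (lymphocyte) or 2 of miR-133a-3p (muscle). miR-124-3p and miR-205-5p, which mark neurons and epithelium, had no count in any sensitive library and at most 2 counts in a resistant one.

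With all 6 libraries, 5 of the 6 arms had higher CPM in every resistant library than in any sensitive one, and none of the 6 changes passed the test (edgeR quasi-likelihood test, adjusted over the 768 miRNAs). Across all tested miRNAs, 4.17% were called (2.08% higher and 2.08% lower, or 16 each way, and 27 higher and 16 lower with scaling by library totals), and the groups did not overlap for 41.8% (18.9% higher and 22.9% lower in resistant cells). As unscaled shares of all counts, 4 of the 6 arms did not overlap, miR-93-3p being the further one that did, against 40.8% of all tested miRNAs (25.7% higher and 15.1% lower in resistant cells). At an unadjusted p under 0.05, edgeR gave 2 members, miR-106b-3p and miR-25-5p, against 26.7% of all tested miRNAs. DESeq2 called 4 members higher, at a background of 19.4% of miRNAs called (12.8% called higher), and limma-voom called 0 at 5.21%. Library totals as the scale called 1 member at 5.6%, and no filter on low counts called 2 at 9.34%. Without resistant replicate 3, edgeR called 5 of the 6 arms higher and 0 lower, at a background of 28.1% of 822 miRNAs called, with 13.7% called higher and 14.4% lower. In that fit 5 members had an unadjusted p under 0.05, against 38.4% of all miRNAs. In bulk RNA a higher level in every cell and a larger share of cells with a high level cannot be told apart. The members share 1 primary transcript and are not independent of each other.

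The median log2 fold change (resistant over sensitive) of the 6 arms was 0.75, against -0.11 over all tested miRNAs. With resistant replicate 3 left out it was 0.94, against 0.04. The median over all miRNAs was 0.09 with scaling by library totals alone and -0.01 with RLE factors, and the median of the arms was then 0.95 and 0.86.

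**Figure D1:**
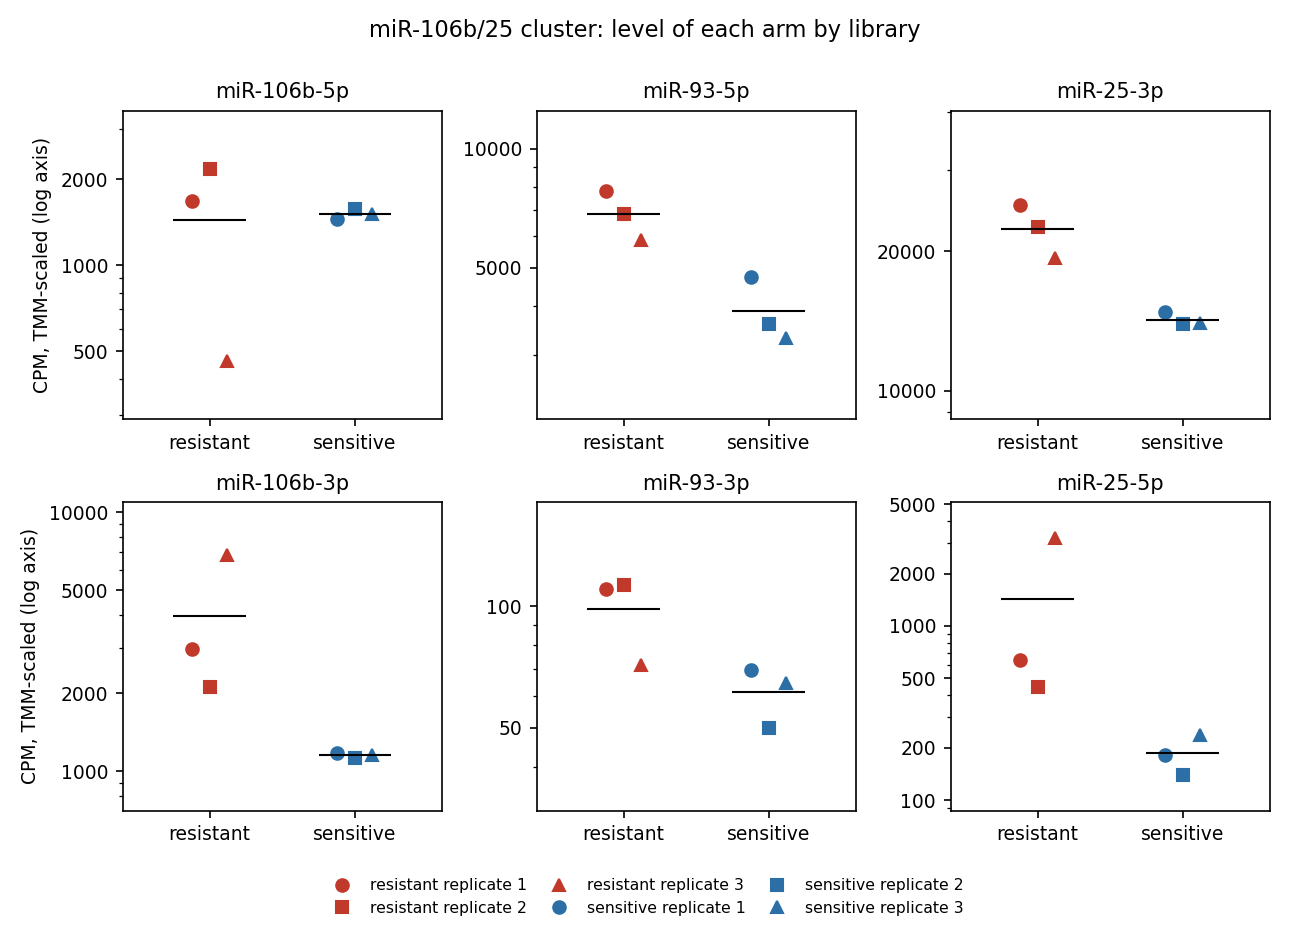
Level of each arm in TMM-scaled CPM (log axis, a scale of its own in each panel) in the 3 resistant and 3 sensitive libraries; symbols mark the replicate and horizontal lines the group mean. In 5 panels all resistant CPM points lie above all sensitive ones, and in the miR-106b-5p panel resistant replicate 3 lies below every sensitive library.

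miR-25-3p, the guide of its hairpin, was the most abundant member. It reached 25176, 22532 and 19351 CPM in resistant replicates 1 to 3, against 14760, 13894 and 14016 CPM in sensitive replicates 1 to 3. All 3 resistant libraries were above all sensitive ones, and resistant replicate 3 was the lowest of the resistant libraries. It ranked 8th by mean CPM among the tested miRNAs in resistant cells and 11th in sensitive cells. The mean was 22353 ± 2917 CPM in resistant and 14223 ± 468 CPM in sensitive cells (SD, n = 3 each), and the change did not pass (log2 fold change of 0.65 with SE 0.35, edgeR adjusted p = 0.258). Without resistant replicate 3 it rose 1.74-fold (log2 fold change of 0.80 with SE 0.16, edgeR adjusted p = 0.00347). As a share of all counts, which needs no scaling factor, it held 2.98%, 2.81% and 1.50% of resistant libraries, against 1.41%, 1.33% and 1.34% of sensitive libraries.

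miR-93-5p, the more abundant of the 2 arms with the miR-17 seed, had 7814, 6843 and 5875 CPM in resistant replicates 1 to 3, against 4741, 3590 and 3310 CPM in sensitive replicates 1 to 3. The groups did not overlap. It averaged 6844 ± 970 CPM in resistant and 3880 ± 758 CPM in sensitive cells (SD, n = 3 each; log2 fold change of 0.82 with SE 0.36, edgeR adjusted p = 0.194). With resistant replicate 3 left out it rose 1.96-fold (log2 fold change of 0.97 with SE 0.20, edgeR adjusted p = 0.00377). Its share of counts in resistant replicate 3, 0.454%, was level with the 0.453% of sensitive replicate 1, so on this unscaled measure the groups were only just apart.

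miR-106b-5p, which shares its seed with miR-93-5p, was the arm whose groups overlapped. It had 1671, 2168 and 464 CPM in resistant replicates 1 to 3, against 1444, 1573 and 1512 CPM in sensitive replicates 1 to 3. Resistant replicates 1 and 2 lay above the sensitive libraries and resistant replicate 3 far below them. The log2 fold change was -0.07 (with an SE of 0.55, edgeR adjusted p = 0.935), and its direction changed with the scaling: it was 0.22 with library totals alone. Leaving out resistant replicate 3 gave 0.40 (SE 0.20, edgeR adjusted p = 0.161).

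The arms that usually serve as passengers had wider differences than their guides in 2 of the hairpins. miR-106b-3p had 2965, 2105 and 6820 CPM in resistant replicates 1 to 3, against 1175, 1126 and 1156 CPM in sensitive replicates 1 to 3. The sensitive libraries lay close together, and the lowest resistant library was well above them. The log2 fold change was 1.78 (with an SE of 0.51, edgeR adjusted p = 0.0996). Leaving out resistant replicate 3, it rose 2.28-fold (log2 fold change of 1.19 with SE 0.20, edgeR adjusted p = 0.00125).

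miR-25-5p had 637, 446 and 3209 CPM in resistant replicates 1 to 3, against 181, 139 and 238 CPM in sensitive replicates 1 to 3. Resistant replicate 3 was several times above the other 2 resistant libraries, which were themselves above all sensitive ones. The log2 fold change was 2.94 (with an SE of 0.80, edgeR adjusted p = 0.0853) with all libraries. Without resistant replicate 3 it rose 3.01-fold (log2 fold change of 1.59 with SE 0.26, edgeR adjusted p = 0.00102). It was called as well without resistant replicate 2 (3.68 on the log2 scale, edgeR adjusted p = 0.0426, background 3.31% called).

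miR-93-3p was the least abundant member, with 1080, 1496 and 182 counts in resistant replicates 1 to 3 and 834, 489 and 348 counts in sensitive replicates 1 to 3. In CPM these were 109.9, 112.9 and 71.5 in resistant cells, against 69.4, 49.9 and 64.4 in sensitive cells. In CPM, resistant replicate 3 stood just above the highest sensitive library. As an unscaled share of counts it held 0.0130%, 0.0141% and 0.00553% of resistant libraries, against 0.00664%, 0.00480% and 0.00615% of sensitive libraries, and resistant replicate 3 lay below sensitive replicates 1 and 3. The log2 fold change was 0.68 (with an SE of 0.39, edgeR adjusted p = 0.281). In the 5 other libraries it rose 1.89-fold (log2 fold change of 0.92 with SE 0.24, edgeR adjusted p = 0.0139).

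**Figure D2:**
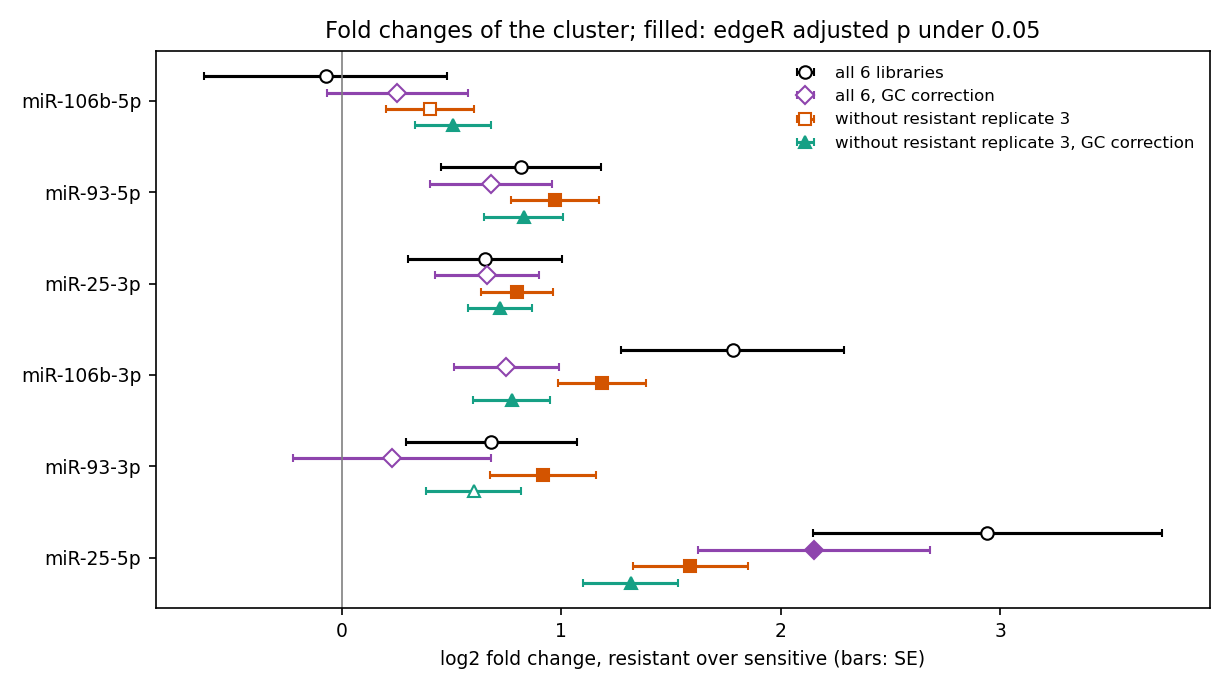
Log2 fold change of each arm, resistant over sensitive, with its SE, in 4 fits that differ in the use of resistant replicate 3 and of a correction for GC content; filled symbols passed at an edgeR adjusted p under 0.05. Without resistant replicate 3, 5 arms passed (28.1% of all miRNAs called). With the correction added 5 arms passed (27.4%), miR-106b-5p in place of miR-93-3p.

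How far resistant replicate 3 deviated from resistant replicates 1 and 2 differed among the arms and ran broadly with their base composition. miR-106b-5p, with 42.9% G and C bases the lowest of the members, was 2.04 log2 units lower in that library. miR-25-3p (50.0%) and miR-93-5p (52.2%) were lower by 0.30 and 0.32 on the log2 scale, near the middle of all tested miRNAs (percentiles 50.7 and 49.7). miR-106b-3p (63.6%) was 1.45 higher and miR-25-5p (57.1%) 2.59 higher. miR-93-3p (59.1%) was 0.64 lower. Across 677 tested miRNAs with a RefSeq sequence, the deviation had a Spearman correlation of 0.715 with GC content, and the log2 fold changes had one of 0.565 with all libraries and 0.330 (729 miRNAs) without resistant replicate 3. The miRNAs of these correlations share their libraries.

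With an offset for GC content in the fit of all 6 libraries, 1 member was called, miR-25-5p (2.15 on the log2 scale, edgeR adjusted p = 0.0444), at a background of 9.24% called. miR-106b-3p had 0.75 there and miR-93-3p 0.23, against 1.78 and 0.68 without the offset. With the offset and without resistant replicate 3, a combination chosen after seeing the data, 5 members were called higher at a background of 27.4% called (12.3% called higher). miR-106b-5p then rose (0.51 on the log2 scale, edgeR adjusted p = 0.0466). miR-93-3p did not pass (0.60, edgeR adjusted p = 0.0573). miR-25-3p, miR-93-5p and miR-106b-3p had log2 fold changes between 0.72 and 0.83 in that fit, and miR-25-5p had 1.32.

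**Figure D3:**
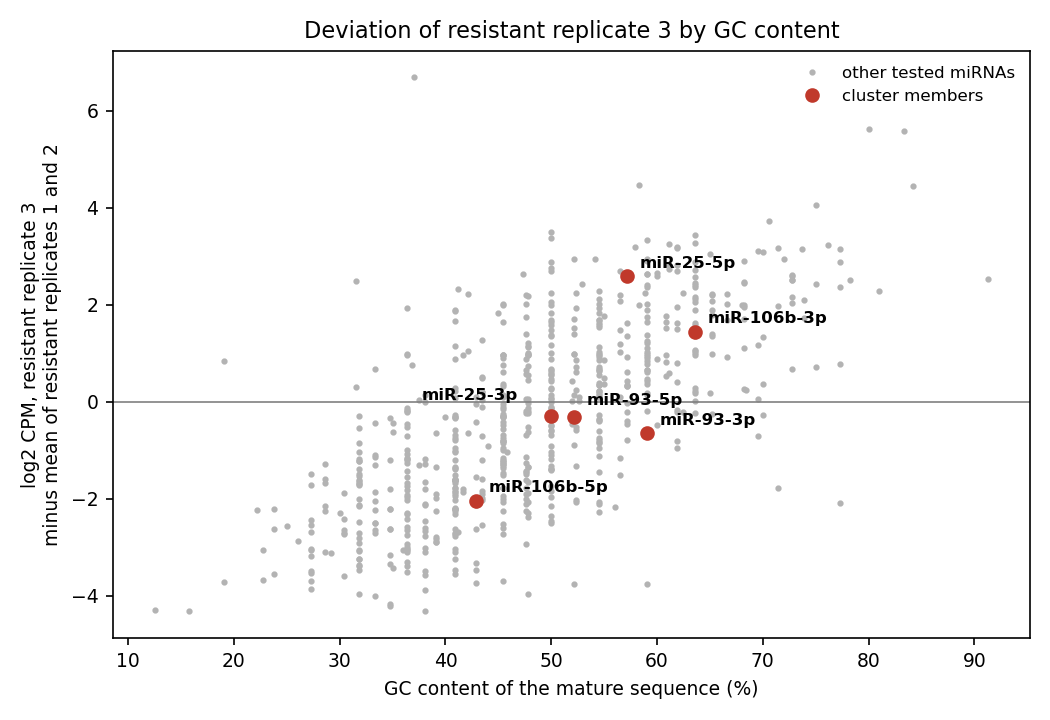
Deviation of resistant replicate 3 from the mean of resistant replicates 1 and 2 (log2 CPM) against the GC content of the mature sequence, for 677 tested miRNAs; cluster members are red and named. miR-106b-5p lies low at 42.9% GC, miR-25-3p and miR-93-5p lie near 0, and miR-106b-3p and miR-25-5p lie above. miR-93-3p, at 59.1% GC, lies below 0 (-0.64).

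The cluster as a whole held a larger share of the reads of resistant cells. The 6 arms summed to 4.54%, 4.26% and 2.77% of all miRNA counts in resistant replicates 1 to 3, against 2.14%, 1.96% and 1.94% in sensitive replicates 1 to 3. The groups did not overlap, and resistant replicate 3 was nearest to the sensitive libraries (exact 95% interval 2.75% to 2.79%, counting error only). The mean was 3.86 ± 0.952% in resistant and 2.01 ± 0.111% in sensitive libraries (SD, n = 3 each). When miR-92a-3p was left out of the total, the shares were 5.69%, 5.16% and 6.69% in resistant libraries, against 2.48%, 2.19% and 2.26% in sensitive libraries, and resistant replicate 3 was then the highest. A larger share in every resistant library was not particular to this cluster. The paralogous miR-17/92 cluster, miR-92a-3p included, held 34.0%, 32.5% and 61.5% of all counts in resistant replicates 1 to 3. In sensitive replicates 1 to 3 it held 25.5%, 24.5% and 24.4%. No p is given for these sums over the members, and 3 libraries against 3 cannot reach a two-sided exact permutation p under 0.1.

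**Figure D4:**
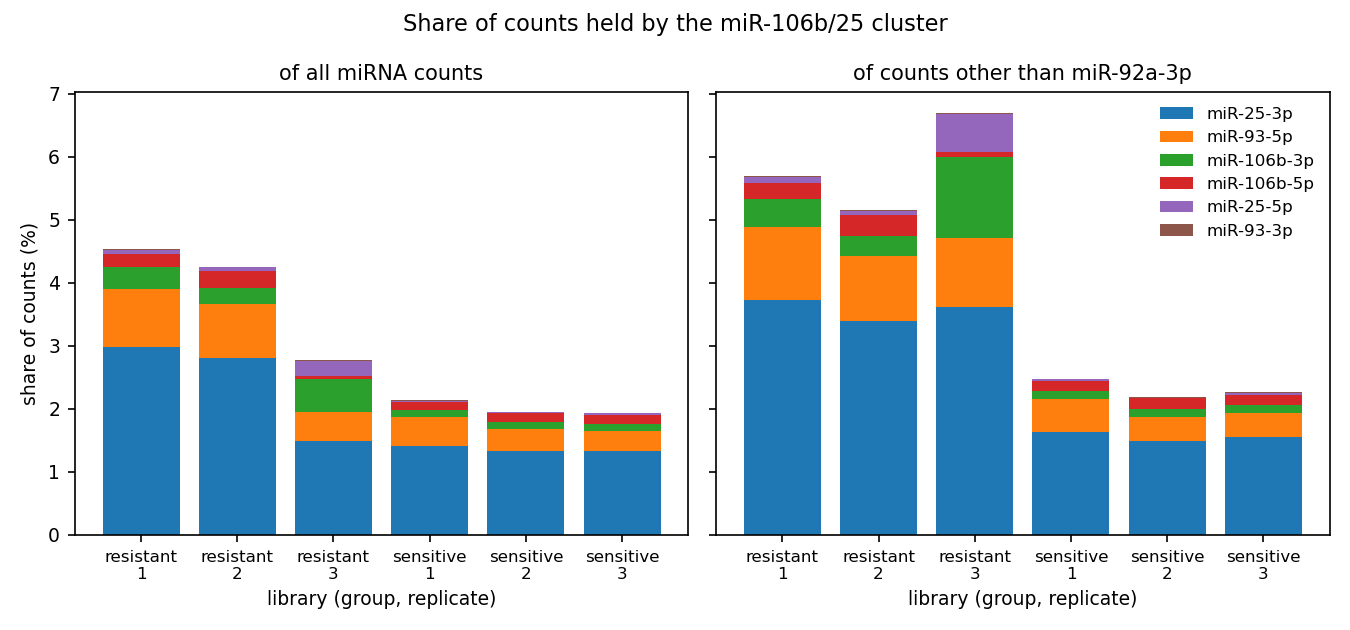
Share of counts held by the 6 arms in each library, stacked by arm, of all miRNA counts (left) and of the counts other than those of miR-92a-3p (right). The resistant libraries reach 2.77% to 4.54% on the left and 5.16% to 6.69% on the right, above every sensitive library.

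The guides of miR-25 and miR-93 kept nearly the same proportion to each other in all resistant libraries. miR-25-3p had 3.22, 3.29 and 3.29 counts per count of miR-93-5p in resistant replicates 1 to 3, against 3.11, 3.87 and 4.23 in sensitive replicates 1 to 3, and the groups overlapped. miR-93-5p had 4.68, 3.16 and 12.7 counts per count of miR-106b-5p in resistant libraries, against 3.28, 2.28 and 2.19 in sensitive libraries. This ratio overlapped between the groups too, with resistant replicate 3 far above the rest. miR-25-3p made up 65.6%, 65.9% and 54.1% of the counts of the cluster in resistant libraries, against 66.0%, 68.2% and 69.1% in sensitive libraries. Ratios between different miRNAs include the ligation preferences of each sequence, so they are not molar ratios. Comparing them between libraries takes such preferences to be equal in each library. The deviation of resistant replicate 3 ran with GC content, so its ratios may not be comparable with the rest.

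Arm use was compared within each library, where no scaling factor enters. For miR-106b, the 3p arm held 64.0%, 49.3% and 93.6% of the reads of the hairpin in resistant replicates 1 to 3, against 44.9%, 41.7% and 43.3% in sensitive replicates 1 to 3. The groups did not overlap, and resistant replicate 3 departed most. The log2 ratio of 5p to 3p was 1.94 lower in resistant cells (difference -1.94, SE 0.91) and did not pass (limma adjusted p = 0.404 over 205 hairpins). The 5 libraries other than resistant replicate 3 gave a difference of -0.78 (SE 0.26, limma adjusted p = 0.327).

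For miR-25, the 5p arm held 2.47%, 1.94% and 14.2% of the reads of the hairpin in resistant replicates 1 to 3, against 1.21%, 0.993% and 1.67% in sensitive replicates 1 to 3. Every resistant library was above every sensitive one. The difference in the log2 ratio of 5p to 3p was 1.77 (SE 0.78, limma adjusted p = 0.404), and 0.81 (SE 0.29, limma adjusted p = 0.327) without resistant replicate 3. For miR-106b and miR-25 the arm with the higher GC content was the one that held a larger share in resistant than in sensitive cells.

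For miR-93, the 5p arm held 98.6%, 98.4% and 98.8% of the reads of the hairpin in resistant libraries, against 98.6%, 98.6% and 98.1% in sensitive libraries. Its 3p arm, which has the higher GC content, held 1.39%, 1.62% and 1.20% in resistant libraries, against 1.44%, 1.37% and 1.91% in sensitive libraries. The groups overlapped, resistant replicate 3 included (difference in the log2 ratio of 5p to 3p 0.16, SE 0.37, limma adjusted p = 0.776). Of the 3 hairpins 0 were called by limma, and 0 had an unadjusted p under 0.05 with all libraries and 2, miR-106b and miR-25, without resistant replicate 3, against 8.78% and 14.1% of all 205 hairpins. Among all 205 hairpins with both arms tested, 1.46% were called with all libraries and 1.95% without resistant replicate 3, and the groups did not overlap for 23.4%. The median size of the log2 arm difference was 0.65 over all hairpins, against 1.94, 0.16 and 1.77 for miR-106b, miR-93 and miR-25.

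**Figure D5:**
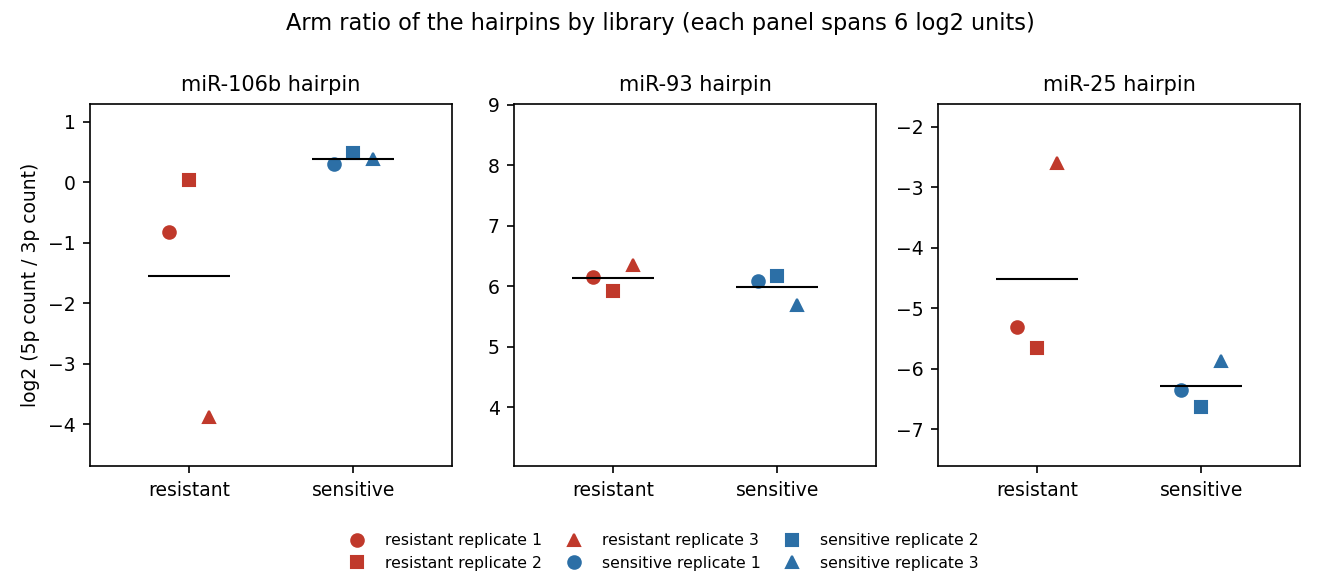
Log2 ratio of 5p to 3p counts for the 3 hairpins in each library; every panel spans 6 log2 units, and lines mark group means. Resistant replicate 3 lies apart for miR-106b (5p arm low) and miR-25 (5p arm high) and among the other libraries for miR-93.

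The miR-17/92 cluster on chromosome 13, a paralogue that carries both guide seeds, had 0 of its 12 tested arms called with edgeR, DESeq2 or limma-voom. Of all tested miRNAs, these tools called 4.17%, 19.4% and 5.21%. With each tool 1 of the 12 arms had an unadjusted p under 0.05, against 26.7% of all tested miRNAs with edgeR. The median log2 fold change of the 12 arms was -0.21 over the 6 libraries and 0.21 in the fit of 5 libraries that left out resistant replicate 3. In that fit 1 arm was called, at a background of 28.1% of miRNAs called. That arm was miR-92a-1-5p, the passenger of the most abundant miRNA. It had 881, 670 and 5940 CPM in resistant replicates 1 to 3, against 303, 175 and 352 CPM in sensitive replicates 1 to 3 (log2 fold change 3.17, edgeR adjusted p = 0.0981). The 5 libraries other than resistant replicate 3 gave a rise of 1.53 on the log2 scale (edgeR adjusted p = 0.00199). It was also called without resistant replicate 2 (background 3.31% called) and without a filter on low counts (background 9.34%). The miR-106a cluster on chromosome X had 10 arms in the table, leaving aside miR-92a-3p and miR-19b-3p, which the table counts once for chromosomes 13 and X. Of these 10 arms 4 were tested. edgeR, DESeq2 and limma-voom called 0 of the 4, against 4.17%, 19.4% and 5.21% of all tested miRNAs. With each tool 0 had an unadjusted p under 0.05, against 26.7% of all tested miRNAs with edgeR. The most abundant of the 4 arms was miR-106a-5p. It averaged 427 ± 213 CPM in resistant and 557 ± 70.0 CPM in sensitive cells (SD, n = 3 each).

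Set against the miR-17/92 arms with their own seed within each library, the arms with the miR-17 seed were higher in every resistant library, and miR-25-3p was higher in resistant replicates 1 and 2 and lower in resistant replicate 3. miR-93-5p and miR-106b-5p together had 0.0903, 0.0829 and 0.238 counts per count of miR-17-5p and miR-20a-5p in resistant replicates 1 to 3, against 0.0549, 0.0387 and 0.0506 in sensitive replicates 1 to 3. The groups did not overlap, and the mean log2 ratio was 1.35 higher in resistant cells (0.86 without resistant replicate 3). miR-92a-3p had 6.79, 6.24 and 39.2 counts per count of miR-25-3p in resistant libraries, against 9.62, 7.87 and 10.7 in sensitive libraries. The mean log2 ratio of miR-25-3p to miR-92a-3p was -3.57 in resistant and -3.22 in sensitive cells, a difference of -0.35. The difference was 0.52 without resistant replicate 3, and -0.75 and -0.81 without resistant replicates 1 and 2. These ratios were not tested.

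Without resistant replicate 3, 28.1% of 822 miRNAs were called (13.7% higher and 14.4% lower). Among the 6 tested miRNAs of the table with the seed AAAGUGC, miR-93-5p was called in that fit and the others were not. The most abundant of them, miR-20a-5p, had 51015 ± 31525 CPM in resistant and 76672 ± 16980 CPM in sensitive cells (SD, n = 3 each; log2 fold change -0.59, edgeR adjusted p = 0.551, and -0.09 without resistant replicate 3). Among the 4 tested miRNAs with the seed AUUGCAC, miR-25-3p was called in that fit. miR-92a-3p (log2 fold change 1.41 with all libraries, and 0.27 without resistant replicate 3) and miR-92b-3p (1.48 and 0.28) did not pass in either fit. miR-32-5p, from an intron on chromosome 9, had -0.99 and -0.41 and did not pass in either.

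The miRNAs whose pattern was most like that of each arm were sought among 240 tested non-members with a mean of at least 100 CPM, by Pearson's r of log2 CPM over the 6 libraries, which is given as a description. miR-25-5p was most like miR-92a-1-5p (r = 0.996), followed by miR-331-3p (0.993) and miR-185-3p (0.991). miR-106b-3p was most like miR-185-3p (0.984), miR-941 (0.980) and let-7c-5p (0.978), and miR-106b-5p was most like miR-20a-3p (0.986), miR-374b-3p (0.979) and miR-15b-3p (0.978). For miR-25-3p the closest were miR-942-5p (0.976), let-7g-5p (0.974) and miR-196a-5p (0.971). For miR-93-5p they were let-7g-5p (0.940), miR-148a-5p (0.939) and miR-942-5p (0.934), and for miR-93-3p miR-148a-5p (0.949), miR-107 (0.914) and miR-361-5p (0.895). The lists of miR-25-3p and miR-93-5p shared let-7g-5p and miR-942-5p, and those 2 arms correlated with each other at 0.961. The arms of the miR-106b hairpin correlated with each other at -0.718 over the same libraries, which include resistant replicate 3.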

How the data were processed

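The deposited table holds raw read counts per mature miRNA, as the authors made them from NEBNext small RNA libraries sequenced on a NovaSeq instrument, per the labels' protocols. Per the submitters' processing notes, the genome was GRCh38. Which aligner and counter were run, and against which miRBase release, is not given in the sources used here. The unchanged counts went into edgeR 4.0.16 (R 4.3.3): filterByExpr (minimum count 10, minimum total 15), TMM factors and the quasi-likelihood F test, with Benjamini-Hochberg adjustment over all tested miRNAs and a threshold of 0.05. An SE of a fold change is its size on the log2 scale over the root of F. Arm ratios, log2 of 5p over 3p counts with a pseudocount of 0.5, were tested with limma 3.58.1 over 205 hairpins. DESeq2 1.42.0 and limma-voom were alternatives. The GC offset is a loess fit, on the GC content of the mature sequence, of each library's deviation from the mean log2 CPM of the libraries fitted. It also takes out any difference between the groups that follows GC content. miRNAs without a RefSeq sequence were not corrected. Both tests were tried on simulated counts. edgeR called 9.52% of miRNAs with a true log2 change of 1 in size, 59.4% at 2 and 93.5% at 3, and 0.729% of unchanged ones. The limma test called 10.4% of hairpins with a changed arm ratio and 0% of unchanged ones. A change of about 1 log2 unit, or an arm difference, that did not pass is therefore not shown to be absent. RefSeq gave a mature sequence for all 6 members. No replicate pair agreed within sampling noise (chi-square per degree of freedom 124 to 4015). Named are the members, the most abundant and the called arms of each related cluster and seed family, and the 3 miRNAs most alike. The members and lists were chosen with earlier results of these data known. Counts carry no molecular identifiers, so intervals cover counting error only.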

Additional observations from a re-analysis of the deposited data

How the results depend on the processing

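The estimates of miR-25-3p, miR-93-5p, miR-93-3p, miR-106b-3p and miR-25-5p were higher in resistant cells under all alternatives run. Whether they passed depended on the libraries and the tool. The cause was not tested. For miR-93-3p the replicate block with the GC correction gave 0.063 (SE 0.45, edgeR adjusted p = 0.944), well below its SE. DESeq2 called miR-106b-3p (1.99, DESeq2 adjusted p = 0.0121), miR-93-5p (0.93), miR-25-5p (3.20) and miR-25-3p (0.77). Without a filter, miR-106b-3p (1.70) and miR-25-5p (2.84) passed, and with library totals miR-25-5p did (2.83). The GC correction gave 2.15 for miR-25-5p, and with resistant replicate 3 left out as well 0.77 for miR-106b-3p, 0.83 for miR-93-5p, 1.32 for miR-25-5p and 0.72 for miR-25-3p. miR-106b-5p turned positive with library totals (0.22), a minimum mean of 10 CPM (0.043), the GC correction (0.25, and 0.51 with resistant replicate 3 left out) and the replicate block with the GC correction (0.18).

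Leaving out 1 library at a time gave log2 fold changes of -0.38 to 0.40 for miR-106b-5p (positive without resistant replicate 3 and, at 0.052, without sensitive replicate 2), 1.19 to 2.36 for miR-106b-3p, 0.78 to 1.12 for miR-93-5p, 0.68 to 0.92 for miR-93-3p, 1.59 to 3.68 for miR-25-5p and 0.67 to 0.84 for miR-25-3p. The fits that left out 1 library called 4 to 231 miRNAs, and 4, 5, 5 and 7 without sensitive replicates 2, 1 and 3 and resistant replicate 1. The number called was 21 with RLE factors, 162 without a filter, 14 with a minimum mean of 10 CPM, 149 with DESeq2, 71 with the GC correction and 225 with that correction and without resistant replicate 3, against 32. Hairpins called for arm use numbered 3, 1 with a pseudocount of 5, and 1 to 4 with 1 library left out. The share of the cluster was 1.84 percentage points higher in resistant libraries, 3.54 without miR-92a-3p in the total and 4.13 against tested miRNAs outside the related clusters. The log2 ratio to the miR-17/92 cluster was 0.19 higher in resistant cells and, without miR-92a-3p, 1.41 higher. Its direction turned without resistant replicate 1 (-0.077) or 2 (-0.063), and it was 0.71 without resistant replicate 3, whose own log2 ratio (-4.47) lay below those of all sensitive libraries (-3.66 to -3.57).

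Same-numbered libraries of the groups deviated together with correlations of -0.06, 0.26 and 0.13, and nothing in the labels pairs them. With the replicate number as a block, 23 miRNAs and 0 members were called, miR-25-3p had 0.64 and miR-25-5p 2.39. Not every library correlated best with its own number. Depth limits miR-93-3p most, at 182 counts in resistant replicate 3.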
